A study of Sus scrofa with 8 samples.

Results

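The 10 genes described here are those of bone-forming cells and the matrix they lay down: COL1A1, COL1A2, SPP1, IBSP, DMP1, MEPE, RUNX2, SP7, ALPL and PHEX. They were matched by gene name among the 22516 genes of RNA-seq tables from the olfactory epithelium (OE) of sows, and all 10 were present. The genes were chosen on measured values, because the library control 4 held them at levels far above the other libraries. What control 4 showed is therefore given as a description, and tests were made on the other 7 libraries.

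The 4 sows were offspring of a Landrace sire and a Rongchang dam, 8 months old and in estrus. In the androstenone treatment group, Boarmate, a spray that mainly holds the boar pheromone androstenone, was applied to the nasal cavity of 2 sows, and the OE was collected 30 min later. The 2 control sows received no spray of any kind, so effects of androstenone and of being sprayed cannot be told apart. Left and right OE gave 4 libraries per group. The sow behind each library was not stated. Each library therefore counted as a replicate in the tests although a group had only 2 animals, and the p-values are too small for that reason. Control 4 also shares its sow with another control library. Leaving out control 4 thus does not leave out the animal whose values led to the choice of the genes.

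Bone is built by osteoblasts, which secrete a scaffold of type I collagen and then bind calcium phosphate to it with acidic glycoproteins. RUNX2 and SP7 are the transcription factors that commit a precursor to this fate, and osteoblasts buried in the matrix become osteocytes. The olfactory mucosa lies directly on thin turbinate bone, and type I collagen is also made by the fibroblasts of the mucosa, so not every gene of the group is specific to bone.

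Summed estimated counts were 4178330 in control 1 and between 81580146 and 100685566 in the other 7 libraries, so control 1 carried the widest counting error. The paper, however, lists a number of clean reads for control 1 within the range of its other libraries. Why the counts of control 1 are low was not tested. A gene was compared between libraries in CPM, its estimated count relative to the library total times the TMM factor, and genes were compared with each other in TPM, which allows for transcript length. The TMM factor was 0.687 in control 4 and between 0.969 and 1.165 elsewhere, so a ratio with control 4 is larger in CPM than in TPM. Markers of the labelled tissue were uneven: among olfactory neuron markers STOML3 lay between 34.9 and 190.2 TPM, ANO2 between 3.18 and 50.4, ADCY3 between 6.25 and 15.0 and the channel gene CNGA2 between 0.279 and 5.01. RTP1 did not pass 0.038 TPM and RTP2 was at 0 in every library, while OMP was not analysed here.

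COL1A1 and COL1A2 encode the chains of type I collagen, the main protein of bone matrix. COL1A1 (ENSSSCG00000036135, Sscrofa11.1 chromosome 12, 26379087 to 26397180) stood at 961, 3686 and 862 TPM in control 1, 2 and 3, at 32876 TPM in control 4, and at 157, 942, 477 and 468 TPM in androstenone 1 to 4. COL1A2 (ENSSSCG00000015326, chromosome 9, 74174484 to 74210407) stood at 825, 3774 and 773 TPM in control 1, 2 and 3, at 37050 TPM in control 4, and at 144, 1006, 560 and 578 TPM in androstenone 1 to 4. Control 2 was the second highest library for both collagen genes and androstenone 1 the lowest, while control 1, control 3 and androstenone 2 lay close together. In CPM, control 4 was 11.6 times the next library for COL1A1 and 12.8 times for COL1A2. The pair kept a nearly fixed proportion: COL1A2 divided by COL1A1 ran from 0.858 to 1.23 in TPM over all 8 libraries, although the levels themselves spanned more than 2 powers of 10. In bulk tissue, more cells of a type and more RNA per cell cannot be told apart.

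The mineral-binding matrix proteins SPP1, MEPE, IBSP and DMP1 are neighbours on chromosome 8, within 241.6 kb between 131077786 and 131319398. SPP1 (osteopontin, ENSSSCG00000009216, 131077786 to 131085334) is made by osteoblasts and osteoclasts and also by macrophages and many epithelia. Its level was 172, 195 and 702 TPM in control 1, 2 and 3, 11085 TPM in control 4, and 431, 489, 136 and 280.0 TPM in androstenone 1 to 4. Control 3 was highest after control 4, and control 2, which led for the collagens, was among the lower libraries. IBSP (bone sialoprotein, ENSSSCG00000009219, 131208281 to 131222048), which binds hydroxyapatite and is largely restricted to mineralizing tissue, was at 58.4, 62.2 and 143 TPM in control 1, 2 and 3, at 5265 TPM in control 4, and at 36.0, 209, 7.95 and 12.4 TPM in androstenone 1 to 4. Androstenone 2 exceeded every control library but control 4, and androstenone 3 and 4 were the lowest of all, so the groups overlapped through 1 library.

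DMP1 (ENSSSCG00000009220, 131285238 to 131319398), an osteocyte protein that nucleates mineral, was at 14.1, 9.63 and 21.5 TPM in control 1, 2 and 3, at 832 TPM in control 4, and at 10.7, 22.0, 5.37 and 5.46 TPM in androstenone 1 to 4. Its order of libraries resembled that of IBSP, with androstenone 2 and control 3 on top after control 4 and androstenone 3 and 4 at the bottom. MEPE (ENSSSCG00000028730, 131186563 to 131198418), another osteocyte matrix protein, was scarce outside control 4: it had 1, 18 and 7 counts in control 1, 2 and 3, 384 counts in control 4, and 10, 9, 4 and 13 counts in androstenone 1 to 4. The 95% Poisson interval of the 1 count in control 1 ran from 0.0253 to 5.57 counts, so that control 1 could not be placed among the other libraries. The intervals of control 2 (10.7 to 28.4 counts) and androstenone 3 (1.09 to 10.2 counts), the ends of the remaining range, did not overlap. These intervals hold counting error alone, without the spread between libraries, and are of counts not scaled for library size. They are too narrow where PCR copies of a molecule were counted as separate reads.

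RUNX2 (ENSSSCG00000001710, chromosome 7, 40106581 to 40353304), the master regulator of osteoblast commitment, varied least of the 10 genes. It stood at 22.0, 36.3 and 14.7 TPM in control 1, 2 and 3, at 94.4 TPM in control 4, and at 17.2, 16.4, 12 and 12.6 TPM in androstenone 1 to 4. Control 4 was 3.38 times the next library in CPM, and control 3 lay within the range of the androstenone libraries. SP7 (osterix, ENSSSCG00000062878, chromosome 5, 18541368 to 18566668) acts downstream of RUNX2. It was at 5.21, 48.4 and 4.0 TPM in control 1, 2 and 3, at 132 TPM in control 4, and at 1.30, 4.70, 0.421 and 0.923 TPM in androstenone 1 to 4. SP7 thus had the widest span among the 7 libraries, with control 2 far above the rest, while androstenone 2 lay close to control 1 and control 3.

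ALPL, tissue-nonspecific alkaline phosphatase, frees phosphate for mineral from pyrophosphate (ENSSSCG00000032607, chromosome 6, 79589695 to 79649646). Its level was 19.7, 122 and 17.0 TPM in control 1, 2 and 3, 553 TPM in control 4, and 25.9, 51.8, 6.15 and 6.48 TPM in androstenone 1 to 4. Androstenone 1 and 2 were above control 1 and control 3, and androstenone 3 and 4 were below every other library. PHEX (ENSSSCG00000012167, chromosome X, 18199396 to 18420985) is a membrane peptidase of osteoblasts and osteocytes that restrains the phosphate-wasting hormone FGF23. It was at 0.250, 0.247 and 0.519 TPM in control 1, 2 and 3, at 20.1 TPM in control 4, and at 0.168, 0.525, 0.339 and 0.239 TPM in androstenone 1 to 4. Outside control 4 the groups overlapped completely, and control 1 rested on 2 counts (95% Poisson interval 0.242 to 7.22).

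**Figure D1:**
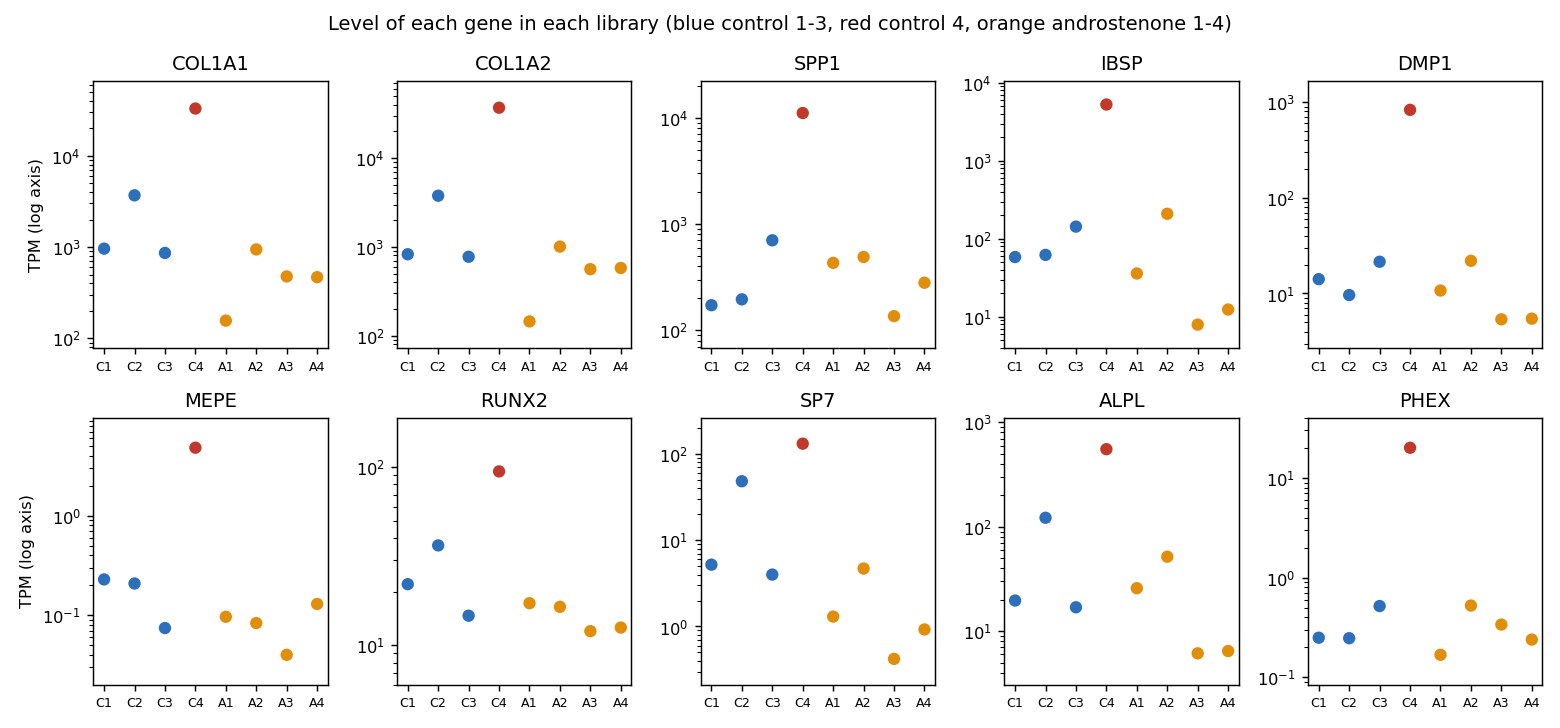
Level of each of the 10 genes in each library, in TPM on a log axis that differs between panels; C1 to C4 are control 1 to 4 and A1 to A4 androstenone 1 to 4, and each point is 1 library. Control 4, in red, is the highest library in all 10 panels, and control 2 is the next for COL1A1, COL1A2, RUNX2, SP7 and ALPL.

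Control 4 was the highest of the 8 libraries for all 10 genes, which is the pattern they were chosen for; it was highest for 20.1% of all genes tested. Relative to the median of control 1 to 3 in CPM, control 4 was 5.52 times as high for RUNX2, between 29.4 and 57.9 times for MEPE, SP7, ALPL, COL1A1 and COL1A2, and between 73.7 and 109.9 times for SPP1, DMP1, PHEX and IBSP. It was at least 4-fold above each of the other 3 control libraries for 8 of the 10 genes, where 1.3% of all genes tested were, and RUNX2 and SP7 were at 3.38 and 3.54 times the highest of them. In this fold, a control level below that of 3 counts was raised to it (0.718 CPM in control 1, without the TMM factor). When 17191 genes were ordered by this fold, the osteocyte and mineralization genes DMP1, PHEX and IBSP ranked 4, 5 and 7 and MEPE 90, behind PRSS35 at 73.0-fold, SOST at 66.9-fold and BGLAP at 64.8-fold, while COL1A2 and COL1A1 ranked 41 and 51. The floor of control 1 held MEPE to 8.04-fold, where the ratio to its highest measured control level was 28.1. It also set the fold of SOST, which was at most 0.371 CPM in control 1 to 3.

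Together the 10 genes took 22.1% of the counts of control 4, 20.7% from the collagens alone, against 0.66% to 2.86% in control 1 to 3 and 0.178% to 0.806% in the androstenone libraries. COL1A2, COL1A1 and SPP1 were among the 10 genes with the most counts in control 4. By TPM, COL1A2 and COL1A1 ranked 2 and 3 there, SPP1 10, IBSP 21, DMP1 139 and ALPL 189 among all genes. The scarcest were SP7 at rank 757, RUNX2 at 1086, PHEX at 5452 and MEPE at 11299. By median TPM over the other 7 libraries the collagens again led, followed by SPP1 and IBSP, and PHEX and MEPE were again last.

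Ratios to COL1A1 within a library, which no scaling of the library changes, varied far more for SPP1, IBSP, ALPL and SP7 than for COL1A2. SPP1 divided by COL1A1, in TPM, ran from 0.053 in control 2 to 2.75 in androstenone 1, a 51.9-fold span. The span was 13.8-fold for IBSP, 12.8-fold for ALPL and 14.9-fold for SP7. IBSP divided by COL1A1 was 0.16 in control 4, and it was as high in control 3 (0.166), androstenone 1 (0.23) and androstenone 2 (0.222), but 0.0169 in control 2 and 0.0167 in androstenone 3. Control 2, the other library rich in collagen, thus did not share the IBSP proportion of control 4. The ratio of SP7 to RUNX2 was instead alike in both, at 1.4 in control 4 and 1.33 in control 2 against 0.0351 to 0.286 in the other 6 libraries.

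**Figure D2:**
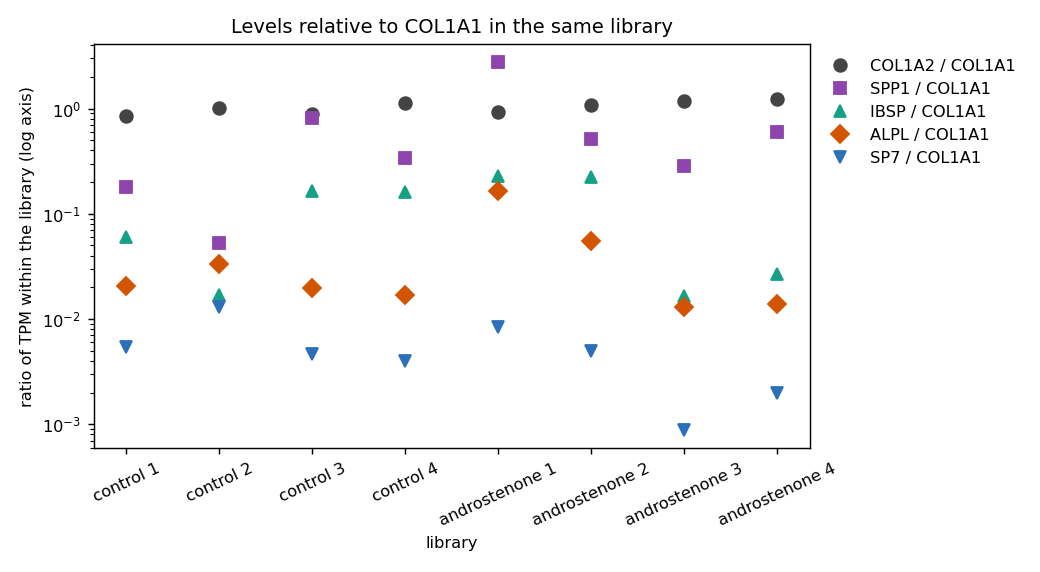
TPM of COL1A2, SPP1, IBSP, ALPL and SP7 divided by the TPM of COL1A1 in the same library, on a log axis, with 1 point per gene and library. COL1A2 stays between 0.858 and 1.23 in all libraries, whereas SPP1 spans 0.053 to 2.75 and IBSP 0.0167 to 0.23.

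The comparison of the groups asks whether these genes differed in the OE after androstenone. It was made with edgeR's quasi-likelihood test at the study's cutoff, an unadjusted p below 0.05 with a log2 fold change past 1 in either direction, and with Benjamini-Hochberg adjustment over all genes. Without control 4, 1 of the 10 genes, SP7, passed the cutoff as lower in the androstenone group, where 3.71% of the 21258 genes tested did, and none passed as higher. Its log2 fold change was -3.17 (SE 1.12, edgeR adjusted p = 0.461). No gene of the 21258 reached an adjusted p below 0.05 in this test, 2107 had an unadjusted p below 0.05, and after adjustment the likelihood ratio test called 138 and DESeq2 572, none of them among the 10 (DESeq2 gave SP7 no p-value).

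Collagen levels pointed the same way without passing. By edgeR's quasi-likelihood test with Benjamini-Hochberg adjustment, COL1A1 had a log2 fold change of -1.64 (SE 0.70, adjusted p = 0.503) and COL1A2 one of -1.44 (SE 0.76, adjusted p = 0.551). Before adjustment, p in this test was 0.0503 for COL1A1, just above the cutoff of 0.05, and 0.0961 for COL1A2. COL1A1 averaged 1837 ± 1603 TPM (SD, n = 3) in control 1 to 3 and 511 ± 324 TPM (SD, n = 4) in the androstenone libraries, so the SD of the control libraries was larger than the difference of the means. In the same test RUNX2 was at -0.53 (SE 0.31, adjusted p = 0.575), MEPE at -0.62 (SE 0.63, adjusted p = 0.744) and ALPL at -1.0 (SE 0.97, adjusted p = 0.733).

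For the remaining genes the difference was smaller than its error. IBSP had a log2 fold change of -0.22 (SE 1.09, edgeR adjusted p = 0.957) and DMP1 one of -0.28 (SE 0.56, adjusted p = 0.88). SPP1 was at 0.09 (SE 0.63, edgeR adjusted p = 0.97) and PHEX at 0.02 (SE 0.53, adjusted p = 0.994). With standard errors of 0.53 to 1.09, a 2-fold difference in these genes was not detectable. In none of the 10 did every androstenone library lie below control 1, 2 and 3, as 5.12% of all genes tested did. The median log2 fold change of the 10 genes was -0.58, beside 0.003 over all genes, and 8 of the 10 were negative.

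The call for SP7 rested on control 2. With control 2 left out as well, SP7 was at -1.15, COL1A1 at -0.68 and COL1A2 at -0.33, ALPL moved to 0.47, and none of the 10 genes passed. SP7 also missed the cutoff without androstenone 1 or androstenone 4, at -3.11 and -2.94, and without androstenone 2 the number that passed rose to 3, with COL1A1 and IBSP. COL1A1 joined SP7 without control 1 or control 3 as well.

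With control 4 included, all 10 genes passed the cutoff as lower in the androstenone group, where 4.38% of 21318 genes did. Since the genes were chosen by their levels in control 4, nothing is read from this count. The log2 fold changes ranged from -4.75 (SE 1.38) for SP7 to -1.53 (SE 0.62) for RUNX2, with COL1A1 at -4.36 (SE 1.40), IBSP at -4.53 (SE 1.92) and PHEX at -4.22 (SE 1.57). None had an adjusted p below 0.05 by the quasi-likelihood test. After adjustment the likelihood ratio test called 200 genes and DESeq2 670, with SP7 among them (unadjusted p = 0.000187 and 1.64e-05). Nothing is read from these calls either. For SPP1 the value was -3.31 with control 4 and 0.09 without it, and for PHEX -4.22 and 0.02.

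**Figure D3:**
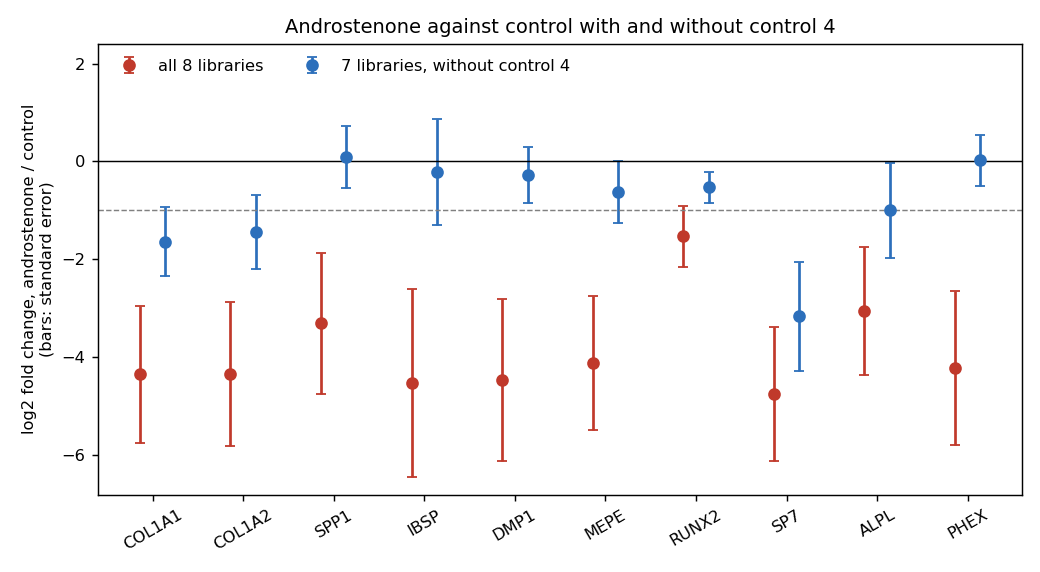
Log2 fold change of the androstenone group against control for each gene from edgeR, with all 8 libraries (red) and without control 4 (blue); bars are standard errors and the dashed line marks -1. The red points lie between -4.75 and -1.53, and the blue points between -3.17 and 0.09, with SP7 the lowest.

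Among the 7 libraries the 10 genes did not vary as a block. Control 2 was at least 4-fold above both control 1 and control 3 for COL1A2, SP7 and ALPL, where 0.901% of all genes tested were, a comparison added after the levels had been seen. In CPM the ratio of control 2 to the higher of control 1 and control 3 was 9.26 for SP7, 6.15 for ALPL, 4.54 for COL1A2, 3.8 for COL1A1 and 1.63 for RUNX2. The same ratio was 0.956 for MEPE and between 0.271 and 0.461 for SPP1, IBSP, DMP1 and PHEX, all below 1. COL1A1, COL1A2, RUNX2, SP7 and ALPL were thus highest in control 2, and IBSP, DMP1 and PHEX in androstenone 2, with control 3 next. The genes did not divide by role: SPP1 was highest in control 3, and MEPE in control 1, on 1 count, and control 2. In CPM, androstenone 3 was the lowest of the 7 for 6 genes, androstenone 1 for 3 and androstenone 4 for 1. Over the 7 libraries Pearson's r of log2 CPM was 0.988 between COL1A1 and COL1A2, 0.955 between IBSP and DMP1 and 0.874 between SP7 and ALPL, but -0.311 between COL1A1 and SPP1. These are descriptions over 7 libraries of 4 sows.

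**Figure D4:**
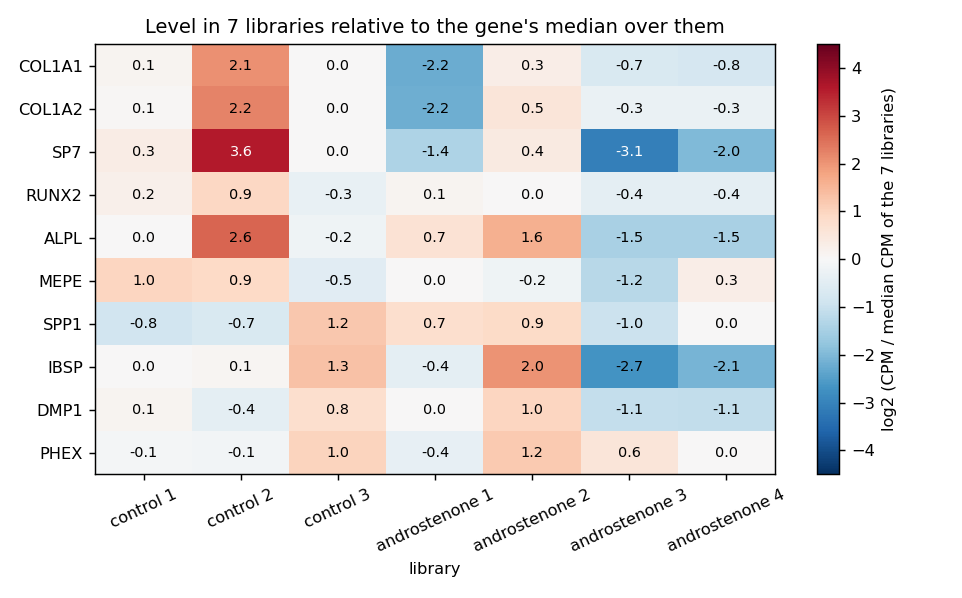
Log2 of the CPM of each gene in each of the 7 libraries other than control 4, divided by the median of the gene over them (red above, blue below). Control 2 is high for the collagens, SP7, RUNX2 and ALPL, and androstenone 2 and control 3 for IBSP, DMP1 and PHEX.

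Other genes of bone formation were taken from lists. Among 16 osteoblast regulators, 3 passed the cutoff as lower without control 4, beside 3.71% of all genes, and none as higher: the homeobox genes DLX5 (log2 fold change -2.88, SE 1.00) and DLX6 (-3.42, SE 0.98) and the parathyroid hormone receptor gene PTH1R (-2.60, SE 0.80). All 3 were highest in control 2 among the 7 libraries, with DLX5 at 32.6 TPM there and at 0.719 to 3.72 TPM elsewhere, and with control 2 left out none of the list passed. The list's median log2 fold change was -0.50. ATF4, a stress-response factor found in most cells, was at 269 TPM in control 4 and at 204 to 274 TPM in the others.

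Of 13 bone and osteocyte products, OMD (log2 fold change -2.76, SE 0.96) and OGN (-2.57, SE 1.03), a pair of small leucine-rich proteoglycans, passed as lower without control 4, beside 3.71% of all genes. None of the list did once control 2 was left out, beside 2.32%. BGLAP, which encodes osteocalcin, was at 186, 100.2 and 168 TPM in control 1, 2 and 3, at 9371 TPM in control 4, and at 54.6, 210, 42.3 and 45.7 TPM in androstenone 1 to 4. Its order resembled that of IBSP, with androstenone 2 the highest after control 4. SOST, the osteocyte gene for sclerostin, was at 29.2 TPM in control 4 and at most 0.294 TPM elsewhere, with 0 counts in control 1, where 3 counts would have been 0.616 CPM. SPARC, or osteonectin, was at 21990 TPM in control 4 and between 189 and 3640 TPM in the others, led by control 2. In CPM, control 4 was at least 4-fold above each of control 1 to 3 for 7 of these 13 genes and 6 of the 16 regulators, beside 1.3% of all genes.

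None of 8 mineral and phosphate handling genes and none of 15 genes of the collagen I synthesis machinery passed the cutoff without control 4, in either direction, and their median log2 fold changes were -0.03 and -0.40. Control 4 was at least 4-fold above the other control libraries for 5 and 8 of them, beside 1.3% of all genes. ENPP1, which makes pyrophosphate, was at 50.2 TPM in control 4 and at 1.08 to 5.16 TPM in the others. ANKH, a transporter tied to extracellular pyrophosphate, was at 111 TPM against 6.58 to 48.2, and ANO5 at 183 TPM against 3.08 to 30.7. FKBP10, a collagen chaperone, was at 381 TPM in control 4 against 7.33 to 91.2, whereas the widely expressed folding enzymes PPIB (718 TPM against 321 to 548) and P4HB (548 TPM against 254 to 401) differed much less.

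Markers of other cell types moved with some of these levels, and their part in the results was not tested. Summed TPM of 10 osteoclast markers, the cells that resorb bone, was 7615 in control 4, 330, 382 and 988 in control 1, 2 and 3, and 296 to 494 in the androstenone libraries. In CPM, control 4 exceeded each other control at least 4-fold for 7 of the 10, beside 1.3% of all genes. ACP5 was at 2806 TPM in control 4 against 67.9 to 338 in the others, CTSK at 3651 TPM against 145 to 476 and ATP6V0D2 at 134 TPM against 1.36 to 15.4. Control 3, the highest library for SPP1 after control 4, was also the highest for these 3 after control 4. Androstenone 2, the next library for SPP1 at 489 TPM, was instead the lowest library for ACP5 (67.9 TPM) and CTSK (145 TPM). It was at 3.77 TPM for ATP6V0D2. None of the 10 passed the cutoff without control 4.

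Some cartilage markers were also high in control 2, where 4 of 11 were at least 4-fold above both control 1 and control 3, beside 0.901% of all genes. Of these 4, MATN3 was higher in androstenone 3 (19.05 TPM) than in control 2 (7.58 TPM). The sum of the list, most of it from ACAN and HAPLN1 in control 2 and control 4, was 318 TPM in control 4 and 178 TPM in control 2, against 48.7 and 11.04 TPM in control 1 and control 3 and 6.50 to 35.1 TPM in the androstenone libraries. ACAN, HAPLN1, COL9A1, COL9A3 and MATN1 passed as lower without control 4, beside 3.71% of all genes, and without control 2 only MATN1 did, beside 2.32%. MATN1 was higher in control 1 than in control 2 (0.889 and 0.333 TPM), as was CNMD (34.2 and 17.2 TPM). ACAN, the aggrecan gene, was at 189 TPM in control 4 and 99.7 TPM in control 2, with a median of 3.75 TPM and a minimum of 0.225 TPM over the 7 libraries. HAPLN1, which links aggrecan to hyaluronan, was at 103 TPM in control 4, 32.3 TPM in control 2 and 0.788 to 2.93 TPM in the rest.

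Fibroblast markers, 13 genes, summed to 19720 TPM in control 4 and 8582 TPM in control 2, against 2696 and 633 in control 1 and control 3, 560 and 565 in androstenone 1 and 2 and 3777 and 3306 in androstenone 3 and 4. None passed without control 4. COL3A1, a collagen of soft connective tissue, was at 7196 TPM in control 4 and 3144 TPM in control 2. COL1A1 divided by COL3A1, a ratio added after the levels were seen, was 7.39 in control 3, 5.67 in androstenone 2 and 4.57 in control 4, against 2.16 in control 1, 1.17 in control 2, 1.27 in androstenone 1 and 0.718 and 0.649 in androstenone 3 and 4. The same libraries, control 4, control 3 and androstenone 2, were the highest for IBSP, DMP1 and PHEX. DCN was at 8266 TPM in control 4 against 163 to 3326, and DPT at 96.0 TPM against 0.335 to 3.15.

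Erythroid and marrow markers, 10 genes, summed to 224 TPM in control 4 and 31.4 to 111 TPM in the others, most of it the beta-globin gene HBB at 205 TPM and 18.0 to 97.3 TPM. Of the list, SLC4A1 passed as lower and HBZ as higher without control 4, the second on 3 to 10 counts per androstenone library and 0 in control 1 to 3, and without control 2 the call for HBZ stayed and that for SLC4A1 did not. ELANE was at 10.7 TPM in control 4 and 8.77 to 15.9 TPM in the others, and HBM at 2.95 and 0 to 2.41 TPM.

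Summed epithelial and neuronal markers were not highest in control 4, and where it stood among the libraries depended on the scale. Motile cilium markers, 11 genes, summed to 312 TPM there against 378 to 1842 in the other 7, nasal gland markers, 10 genes, to 3528 TPM against 3966 to 13385, and olfactory neuron markers, 10 genes, to 80.6 TPM against 94.9 to 215. In CPM, where the TMM factor offsets the share taken by bone genes, control 4 was the lowest library for none of these lists: the cilium sum was 861 there and 767 in control 2, the gland sum 5460 there and 3920 in control 1, and the neuron sum 303 there and 290 in androstenone 2. None of the cilium and neuron markers passed the cutoff without control 4, and LPO and ODAM of the gland list passed as lower, beside 3.71% of all genes. They were replaced by SLPI when control 2 was left out. FOXJ1, the regulator of motile cilia, was at 73.2 TPM in control 4 against 105 to 531, and RSPH1 of the cilium axoneme at 44.2 TPM against 53.6 to 287. STOML3 of the neuron list was at 34.9 TPM against 41.3 to 190.2, and BPIFA1 and PIGR of the secretory epithelium at 1445 against 1236 to 6526 and 910 against 714 to 3688. Of the remaining genes of these lists, ANO2 was at 28.8 TPM in control 4 against 3.18 to 50.4, EBF2 at 0.387 against 0.0321 to 0.253 and BPIFB2 at 0.426 against 0 to 1.57. SPAG6 of the cilium list was at 20.7 TPM in control 4 and lower in control 2, at 18.2 TPM, with a median of 33.6 TPM over the 7 libraries. SPP1 was at 431 to 702 TPM in control 3, androstenone 1 and androstenone 2, where the cilium sum was 1335 to 1842 TPM, and at 136 to 280.0 TPM in control 1, control 2, androstenone 3 and androstenone 4, where it was 378 to 804 TPM. Control 4 went the other way, with SPP1 at 11085 TPM and the cilium sum at 312 TPM.

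**Figure D5:**
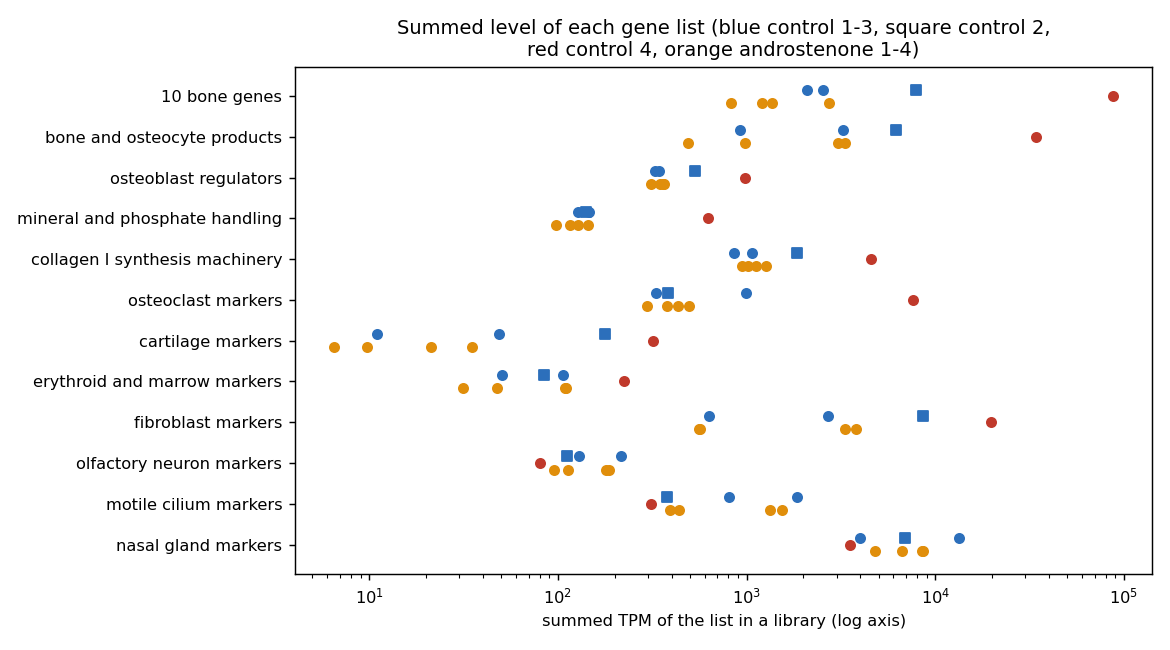
Summed TPM of each gene list in each library on a log axis, with control 1 to 3 in blue, control 2 as a square, control 4 in red and androstenone 1 to 4 in orange. The 10 bone genes reach 87912 TPM in control 4 and 7935 TPM in control 2, against 823 to 2743 TPM in the rest, while control 4 is the lowest library for the neuron, cilium and gland lists in TPM but not in CPM, where its sums for them are 303, 861 and 5460.

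The genes outside these lists whose pattern was most like the mean of the 10 were found by Pearson's r of log2 CPM. Over 8 libraries and 15831 genes they were ENSSSCG00000033286 (r = 0.996), CHST13 (0.994), BAMBI (0.993), ADAMTS14 (0.992) and GLB1 (0.983), all with control 4 as their highest library. Over the 7 libraries and 15793 genes they were CHST13 (0.986), ENSSSCG00000043071 (0.965), COL11A2 (0.962), AK5 (0.954) and ENSSSCG00000033286 (0.943). CHST13, a chondroitin sulfotransferase, was at 52.0 TPM in control 4, 3.15 TPM in control 2 and at least 0.532 TPM in every library, and all 5 genes of the second set were highest in control 2 among the 7. These values describe 8 libraries of 4 sows and carry no test.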

How the data were processed

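RNA-seq was made from 8 OE libraries of 4 sows. The authors filtered reads by quality (fastp 0.23.1) and assigned them to the Sscrofa11.1 cDNA set of Ensembl release 108 by Kallisto 0.48.0. Per gene and library, the authors deposited an estimated count, unnormalized and often fractional, and a TPM value, which is relative to transcript length and the library's total. The sources used here give neither how transcripts were summed to genes nor whether strand was used.

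Estimated counts were rounded, genes without a count in the libraries fitted were dropped (21318 of 22516 stayed with 8 libraries, 21258 with 7), and the groups were compared with edgeR 4.0.16 (TMM, quasi-likelihood test, no covariates) in R 4.3.3. Alternatives were edgeR's likelihood ratio test, DESeq2 1.42.0, RLE, library size only, filterByExpr, limma 3.58.1 on log2(TPM + 1) and on log2(TPM + 0.1), a replicate block, and each library left out in turn. Other values were computed with Python 3.11.15 and pandas 2.3.3. Intervals of counts are exact Poisson intervals. The SE printed with an edgeR log2 fold change was computed from the test. It is the absolute log2 fold change divided by the square root of the test's F statistic. The floor of a control level in the CPM folds of control 4 and control 2 is 3 counts per library, without the TMM factor.

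The 10 genes, the lists and the tests were chosen with earlier results of these data known. Named from each list were the 2 genes with the highest mean TPM and the gene with the largest ratio of control 4 to the median of control 1 to 3 (at least 20 counts in control 4). A gene that this rule named is not reported here. Genes named because few of a list passed, and CNGA2, RTP1, COL9A1 and the other genes outside that rule, were chosen after their values were seen. Gene names came from a table that matched 15527 of the 22516 identifiers, and coordinates from the RefSeq annotation of Sscrofa11.1. Listed genes that matched no identifier, and sequences of the genes, were not analysed here.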

Additional observations from a re-analysis of the deposited data

Results flagged for a closer look

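Within each group of 4 libraries, the gap between an extreme library and its neighbour was divided by the whole range of the group and set against Dixon's critical value. In TPM, control 4 stood apart from the other control libraries for 7 of the 10 genes, with ratios of 0.912 for COL1A1, 0.917 for COL1A2, 0.951 for SPP1, 0.967 for MEPE, 0.984 for IBSP and 0.986 for both DMP1 and PHEX. RUNX2, SP7 and ALPL did not pass in TPM. The genes were chosen for their levels in control 4, so these ratios are a description. In the androstenone group, 1 library was set apart in TPM: androstenone 2 for IBSP, at 0.861, the library that was also highest of the group for DMP1 and PHEX. On the log2 CPM scale only PHEX in control 4 passed, at 0.839. In all, 20 groups were looked at on each scale. For normally distributed values, chance passes about 1 group in 20, a rate that skewed TPM values need not follow. The control 4 values, having chosen the genes, cannot be compared to that rate on either scale.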

How the results depend on the processing

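Without control 4, the number of the 10 genes passing the cutoff was 1 with edgeR's quasi-likelihood test. It was 2, COL1A1 and SP7, with the likelihood ratio test, RLE, library size only, filterByExpr and log2(TPM + 0.1), and 1 with DESeq2 (COL1A1) and log2(TPM + 1) (SP7). Leaving out 1 library gave 0 to 3. With the replicate block it was 2, but over all 8 libraries same-numbered libraries did not deviate together (correlations of -0.036, -0.498, -0.598 and 0.173). The numbers thus gave no sign of pairing, which so few values cannot exclude. The block lowered the calls over all genes from 789 to 342. With all 8 libraries, 10 passed, and the count was 3 with DESeq2, which gave 7 of them no p-value, 2 on either TPM scale and 1 with the replicate block. Leaving out 1 library gave 1 (control 4) to 10, with 4 without androstenone 1, 3 or 4. Over all genes the number lower with 8 libraries was 934, 1399 with the likelihood ratio test, 301 with the block, 167 and 422 on log2(TPM + 1) and log2(TPM + 0.1), and 1463 without control 3. Without control 4 it was 789, and 1134 with the likelihood ratio test, 221 on log2(TPM + 1), 488 without control 2 and 1455 without control 3. The paper names edgeR but not which of its tests was used, so these counts need not be those of the study. Leaving out 1 library moved ALPL without control 4 over -1.853 to 0.469 (0.469 without control 2), and with 8 libraries SPP1 over -3.712 to 0.088 and PHEX over -4.621 to 0.021 (0.088 and 0.021 without control 4). The cause of these shifts was not tested beyond the libraries named. Of the values of single genes without control 4, 134 kept their side of the cutoff, 11 newly passed, 3 no longer passed and 1, ALPL without control 2, was counted as reversed. The 134 include small values that changed sign. PHEX had the sign of the main fit in 6 of 15 alternatives, SPP1 in 11 and IBSP in 12. SP7 was negative in all 14 alternatives that gave a p-value. The count of the 10 genes far above the other controls in control 4 was 8, beside 1.3% of all genes, and 7 to 10 in its alternatives. It was 7 by library total (0.643% of all genes), 8 in TPM (1.39%), and 10 both at a 2-fold limit (4.75%) and without control 2 (3.13%). In control 2 it was 3 on all 3 scales at the 4-fold limit. The shares of all genes beside it were 0.901% in CPM, 0.882% by library total and 4.34% in TPM. At a 2-fold limit it was 4, beside 4.34% of all genes. Low counts limit MEPE and PHEX most, at 1 and 2 counts in control 1, and 3 and 4 libraries per group of 2 sows limit every test.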
